A study of Mus musculus with 6 samples.

Results

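The genes described here encode the subunits of AMPK, the AMP-activated protein kinase, and the kinases and partner that switch it on. They are Prkaa1, Prkaa2, Prkab1, Prkab2, Prkag1, Prkag2, Stk11, Cab39 and Camkk2, 9 of the 18193 genes that a probe set named alone. Every probe set (the group of oligonucleotides that reads 1 transcript) whose platform annotation named exactly 1 of these genes was taken, which gave 23 of the 45101 probe sets on the array. Transcripts were measured on 6 one-colour oligonucleotide arrays from 3T3-L1 cells, an established line of mouse preadipocytes. The control group holds 3 samples of untreated cells, and the resveratrol group holds 3 samples treated with that plant polyphenol. Dose, duration, vehicle and state of differentiation are not in the labels. Nor do these say whether the cultures are independent, and p-values may therefore reflect technical spread alone.

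AMPK is an energy sensor built of a catalytic alpha subunit, a scaffolding beta subunit that can bind glycogen, and a gamma subunit that binds AMP, ADP and ATP. It is active once its alpha subunit is phosphorylated in the activation loop, by LKB1 (the product of Stk11, working with STRAD and with MO25, the product of Cab39) or by the calcium-dependent kinase CaMKK2. In fat cells active AMPK is known for restraining the synthesis of fatty acids and sterols and for acting on glucose uptake and lipolysis. Resveratrol is known to raise AMPK phosphorylation in several cell types, and the question asked of these arrays is whether the transcripts of the complex and of its activators differed between treated and control cells. Arrays read transcript levels and not phosphorylation or protein.

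Of the fat cell markers Fabp4, Adipoq, Cidec, Lpl, Cebpa and Pparg, the mean control intensity ran from 2540 to 11745, so fat cell transcripts were present in the control samples. Read by its brightest probe set, as for every list here, Cidec was the 1 of these 6 that passed the test, as a fall, and the median difference was -0.24. The dimmer pair of the 4 Fabp4 probe sets was also called lower, at -0.67 (adjusted p = 0.00129) and -0.51 (adjusted p = 0.00164). The summed intensity of the 6 was 31478 to 47303 in control and 30950 to 37980 in treated arrays. The summed intensity of 5 preadipocyte and fibroblast markers was 18103 to 21354 in control and 16098 to 19080 in treated arrays, with a median difference of -0.07. Thy1 rose, at 0.40, while Dlk1, Pdgfra, Col1a1 and Col3a1 did not pass, at 0.08, -0.07, -0.32 and -0.29, and the dimmer Col3a1 probe set was called lower, at -0.58 (adjusted p = 0.00534). The summed intensity of 5 macrophage markers was 266 to 336 in control and 362 to 420 in treated arrays, and Cd14 was the 1 of these that passed, as a rise; no marker of this list was at 0. The summed intensity of 5 skeletal muscle markers was 142 to 173 and 153 to 200, that of 4 endothelial markers 66.0 to 89.8 and 75.1 to 101, and none of the 5 tested genes of these lists passed. In material measured in bulk, fewer cells of a type and less RNA per cell cannot be told apart, and the part of these marker shifts in the results below was not tested. The hybridisation spikes, bacterial transcripts added to every sample, were brighter on control replicates 1 and 2 and resveratrol replicate 1 than on the other arrays. Any difference given below within a side of this split therefore rests on a single array in 1 of the groups.

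The regions just upstream of the genes of both catalytic subunits are shown first. Their transcripts had the largest differences between the groups among the members, in opposite directions. The Prkaa1 difference was called and those of Prkaa2 were not. The sequences are the 250 bases before the annotated start, 5′ to 3′ on the strand of the gene, from RefSeq on GRCm38.p6, and capitals mark the GC box GGGCGG on either strand.
Prkaa1 (chr15:5143611-5143860, plus strand): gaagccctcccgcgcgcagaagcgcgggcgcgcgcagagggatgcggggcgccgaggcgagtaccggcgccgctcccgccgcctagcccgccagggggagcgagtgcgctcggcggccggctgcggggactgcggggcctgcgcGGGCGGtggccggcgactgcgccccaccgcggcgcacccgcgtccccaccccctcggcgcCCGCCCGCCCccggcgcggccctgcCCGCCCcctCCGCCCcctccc
Prkaa2 (chr4:105109899-105110148, minus strand): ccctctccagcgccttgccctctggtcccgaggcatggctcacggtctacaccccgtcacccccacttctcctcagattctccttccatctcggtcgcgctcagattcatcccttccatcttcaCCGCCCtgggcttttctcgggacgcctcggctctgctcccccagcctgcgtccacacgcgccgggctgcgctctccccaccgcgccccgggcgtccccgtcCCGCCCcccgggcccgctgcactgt
The Prkaa1 window held 5 GC boxes, a pair of them overlapping, and 45 CG dinucleotides, and the Prkaa2 window held 2 GC boxes and 24 CG dinucleotides. Among 32851 upstream windows of the same length, 32.7% held at least 1 GC box, and the median number of CG dinucleotides was 6. Neither window held the motif CCAAT on either strand, which 33.8% of all windows hold. The same was true of the TATA box TATAAA, held by 12.4%, and of the E-box CACGTG, held by 6.02%. For the other members, the window of Prkab2 held 5 GC boxes, that of Cab39 held 2, those of Prkag1 and Camkk2 held 1, and those of Prkab1 and Stk11 held 0. The Stk11 window held 3 CCAAT boxes, that of Prkag1 held 1, and those of Prkab1, Prkab2, Cab39 and Camkk2 held 0. CG dinucleotides numbered 24 for Prkab1 and Stk11, 18 for Prkab2, 12 for Prkag1, 27 for Cab39 and 32 for Camkk2. Prkag2 has 3 annotated starts, with 0 to 2 GC boxes, 0 to 2 CCAAT boxes and 4 to 34 CG dinucleotides before each. A match is a description of the letters and not evidence of a bound factor.

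Among the members, Prkaa1, the catalytic alpha1 subunit, was the 1 gene that passed the test. Its intensity (the deposited linear brightness of the probe set) was 136, 167 and 172 in the control arrays and 215, 208 and 223 in the resveratrol arrays. All 3 treated arrays lay above all 3 controls, and control replicate 1 was the lowest of all. The means were 158 ± 19.5 and 215 ± 7.81 (SD, n = 3), a rise of 0.42 ± 0.10 (SE) on the log2(intensity + 16) scale, or 1.33-fold, with a 95% interval from 0.19 to 0.64 and adjusted p = 0.033 in limma's fit over 27022 probe sets. Log2 differences below are on this scale, which understates changes of dim probe sets, and intervals are for a single probe set and not adjusted for the number tested.

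The Prkaa1 call lay close to the threshold of 0.05. It passed without control replicate 3 (adjusted p = 0.0358) and did not pass when any 1 of the other arrays was left out: adjusted p was 0.0758 without control replicate 1, 0.066 without control replicate 2, and 0.0976, 0.082 and 0.093 without resveratrol replicates 1, 2 and 3. With spike brightness entered as a block the difference was 0.39 with adjusted p = 0.0751. It was 0.47 within the brighter arrays, with a single treated array, and 0.30 within the dimmer ones, with a single control array. The difference ranged from 0.32 to 0.47 over 19 alternatives, and 11 of these passed. The values within either side of the spike split are not among the 19. Alternatives that change only the filter, the variance estimate or the replicate block cannot move the difference. Nor can averaging the probe sets of a gene that has 1. Prkaa1 was read by a single probe set, so no other probe set of the gene bears on it.

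**Figure D1:**
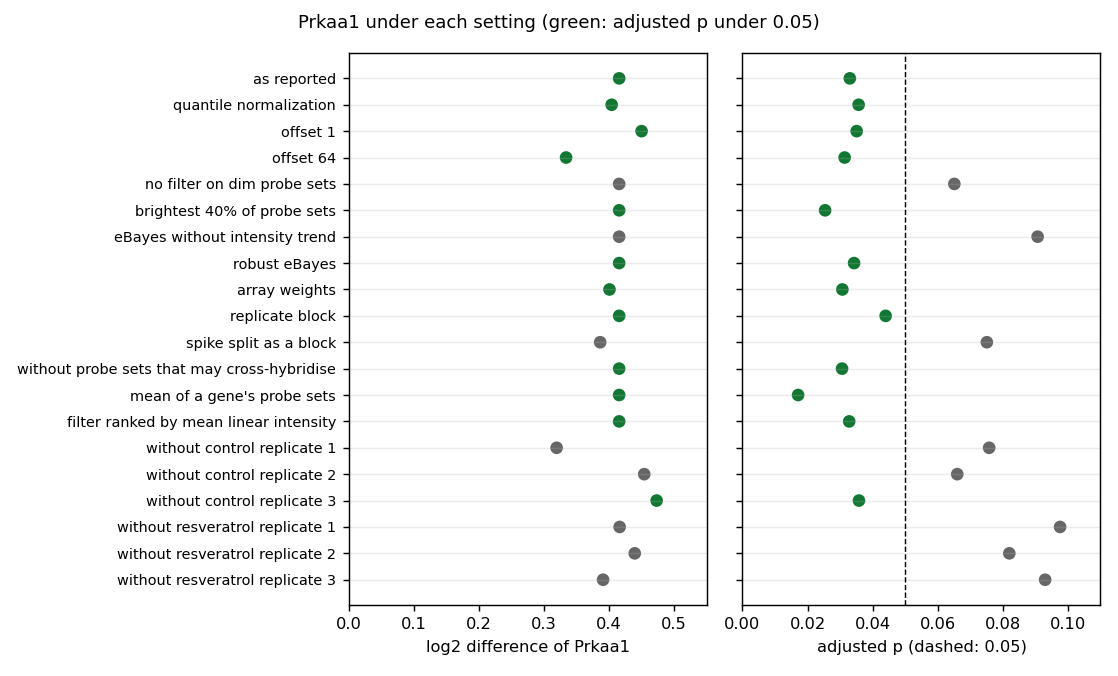
Log2 difference of Prkaa1 between resveratrol and control (left) and its adjusted p (right) as reported and under 19 alternative settings, with the threshold of 0.05 dashed and passing settings in green. The difference runs from 0.32 to 0.47, though several settings cannot move it. The adjusted p runs from 0.0171 to 0.0976 and crosses the threshold.

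Prkaa2, the catalytic alpha2 subunit, the form known for its abundance in skeletal muscle, had lower readings in treated cells in its 3 probe sets, and none of these differences was called. Its brightest probe set read 44.5, 67.6 and 71.1 in control and 42.3, 29.6 and 46.8 in treated arrays. The groups overlapped, since control replicate 1 was below resveratrol replicate 3. The difference was -0.47 ± 0.19 (SE, adjusted p = 0.167), with an interval from -0.88 to -0.06. The next probe set read 46.1, 35.5 and 46.3 against 26.9, 33.2 and 30.9, with every treated array below every control, and had -0.34 ± 0.16 (adjusted p = 0.252). The mean of these tested probe sets gave -0.40 (adjusted p = 0.0893). The last probe set, at 3.1 to 9.68 over all arrays, was too dim to be tested. Where spikes were brighter its brightest probe set had -0.29 and where they were dimmer -0.70, and the next had -0.40 and -0.38.

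**Figure D2:**
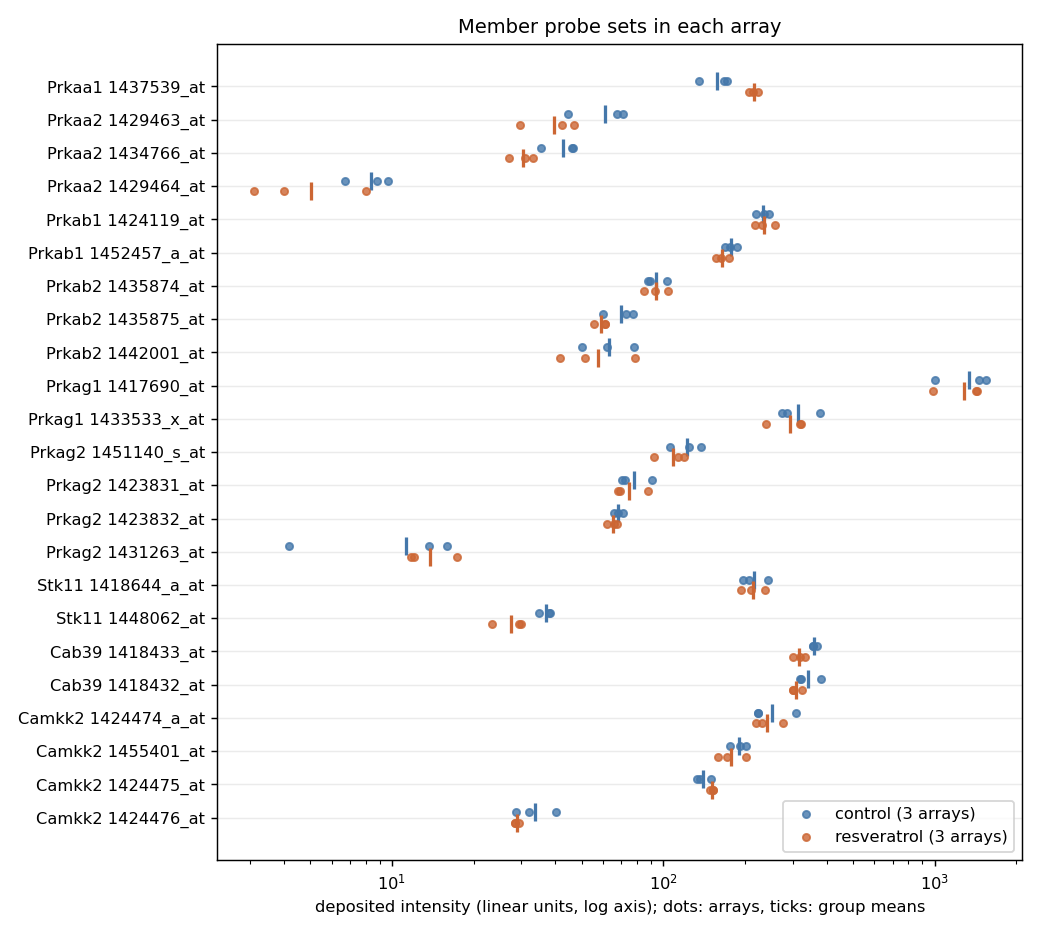
Deposited intensity of the 23 member probe sets in each of the 6 arrays (dots, log axis) with the group means as ticks, control in blue and resveratrol in orange. Prkaa1 lies at 136 to 172 in control and 208 to 223 in treated arrays, and most other rows overlap.

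The within-array difference between the alpha genes combines the Prkaa1 rise with the lower Prkaa2 readings, which were not called. The log2 level of the Prkaa1 probe set minus that of the brightest Prkaa2 probe set was 1.33, 1.13 and 1.11 in control and 1.99, 2.29 and 1.93 in treated arrays. The groups did not overlap, with means of 1.19 ± 0.12 and 2.07 ± 0.20 (SD, n = 3) and a shift of 0.88. Against the next Prkaa2 probe set the same quantity was 1.29, 1.83 and 1.59 in control and 2.43, 2.18 and 2.35 in treated arrays. These groups did not overlap either, with a shift of 0.75, but the comparison uses the same Prkaa1 readings and is not independent. The shift against the brightest probe set was 0.76 within the arrays of brighter spikes and 1.004 within the others, and it was 1.06 with an offset of 1 and 0.60 with an offset of 64 in place of 16. Such a difference compares the readings of separate probe sets, so its size is not a ratio of transcripts, and only its change between arrays is read. It was chosen after the values were seen and is given with no test.

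**Figure D3:**
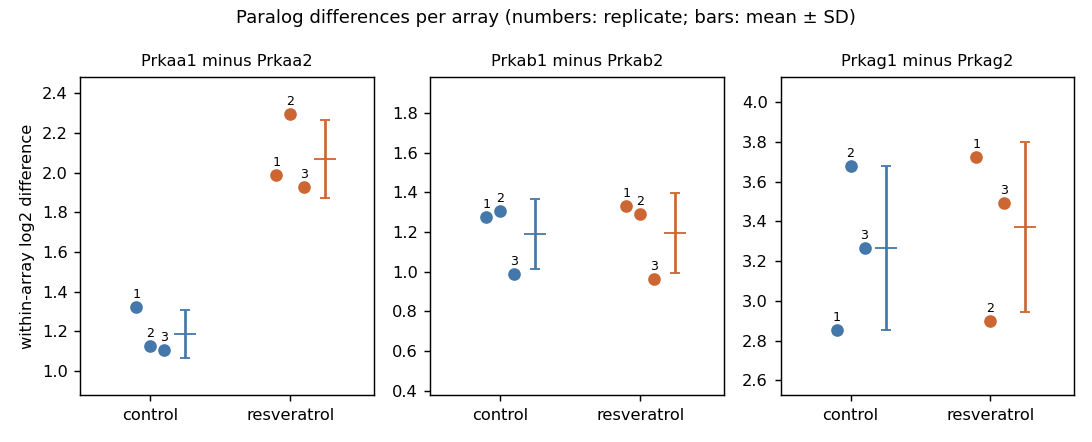
Within-array difference of log2(intensity + 16) between the brightest probe sets of the alpha, beta and gamma genes, each dot 1 array with its replicate number and bars giving the mean ± SD (n = 3). The alpha difference is at 1.11 to 1.33 in control and 1.93 to 2.29 in treated arrays, while the beta and gamma differences overlap; all 3 panels span the same range of log2 units.

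The beta subunits, which hold the complex together, gave small differences. Prkab1 read 236, 245 and 221 in control and 259, 231 and 219 in treated arrays with its brighter probe set. Treated and control arrays were interleaved, with a difference of 0.01 ± 0.09 (SE, adjusted p = 0.969) and an interval from -0.19 to 0.21. Its other probe set had -0.10 (adjusted p = 0.61). The 3 probe sets of Prkab2 had differences of 0.00, -0.19 and -0.13, with adjusted p from 0.482 to 0.991 and groups that overlapped in each. The brightest of them read 88.1, 89.6 and 103 in control and 93, 85 and 104 in treated arrays, and replicate 3 was the highest of both groups. The within-array difference between Prkab1 and Prkab2 was 1.19 ± 0.18 in control and 1.19 ± 0.20 in treated arrays (SD, n = 3), a shift of 0.01.

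The gamma subunits, which carry the nucleotide-binding sites, did not pass either. Prkag1, the widely expressed gamma1 form, read 1001, 1546 and 1463 in control and 1419, 990 and 1438 in treated arrays. Here 1 array of each group, control replicate 1 and resveratrol replicate 2, stood about equally far below the others. The difference was -0.05 ± 0.17 (SE, adjusted p = 0.899), with an interval from -0.43 to 0.32, wider than that of Prkab1. It was 0.19 where spikes were brighter and -0.29 where they were dimmer. A second Prkag1 probe set, of a kind that may bind other transcripts, had -0.09 (adjusted p = 0.784), and there control replicate 2 was the highest and resveratrol replicate 3 the lowest array. The 3 tested probe sets of Prkag2 had -0.16, -0.05 and -0.06 (adjusted p from 0.545 to 0.9), and the brightest read 125, 106 and 138 in control and 92.5, 119 and 113 in treated arrays. A further Prkag2 probe set at 4.17 to 17.4 was too dim to be tested. The within-array difference between Prkag1 and Prkag2 shifted by 0.10, with SDs of 0.41 and 0.43 in the groups.

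The upstream kinases and the LKB1 partner gave no call. Stk11, which encodes LKB1, read 208, 244 and 197 in control and 237, 210 and 193 in treated arrays with its brighter probe set. These overlapped fully, with a difference of -0.02 ± 0.11 (SE, adjusted p = 0.956) and an interval from -0.25 to 0.22. Its dimmer probe set read 38.2, 37.8 and 34.9 against 23.4, 29.3 and 30, and had -0.28 ± 0.16 (adjusted p = 0.336). All treated arrays were below all controls in that probe set, with -0.45 within the arrays of brighter spikes and -0.16 within the dimmer ones. The interval of the dimmer probe set ran from -0.63 to 0.06 and overlapped that of the brighter one. Neither Stk11 probe set passed, and the difference between them was not tested.

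Cab39, which encodes MO25, the adaptor that stabilises active LKB1, read 357, 368 and 357 in control and 320, 301 and 332 in treated arrays. The groups did not overlap, and the difference was -0.17 ± 0.08 (SE, adjusted p = 0.213), with an interval from -0.34 to -0.01. It was -0.17 on either side of the spike split. The other Cab39 probe set read 321, 382 and 320 against 301, 326 and 300, where the groups overlapped, and had -0.13 ± 0.09 (adjusted p = 0.453). Camkk2, the calcium-dependent kinase, had 4 probe sets with differences of -0.04, -0.09, 0.10 and -0.14 and adjusted p from 0.629 to 0.899. The brightest read 223, 309 and 223 in control and 220, 231 and 276 in treated arrays, with 1 high array in each group, and its difference was -0.24 where spikes were brighter and 0.17 where they were dimmer. The groups overlapped in all 4.

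**Figure D4:**
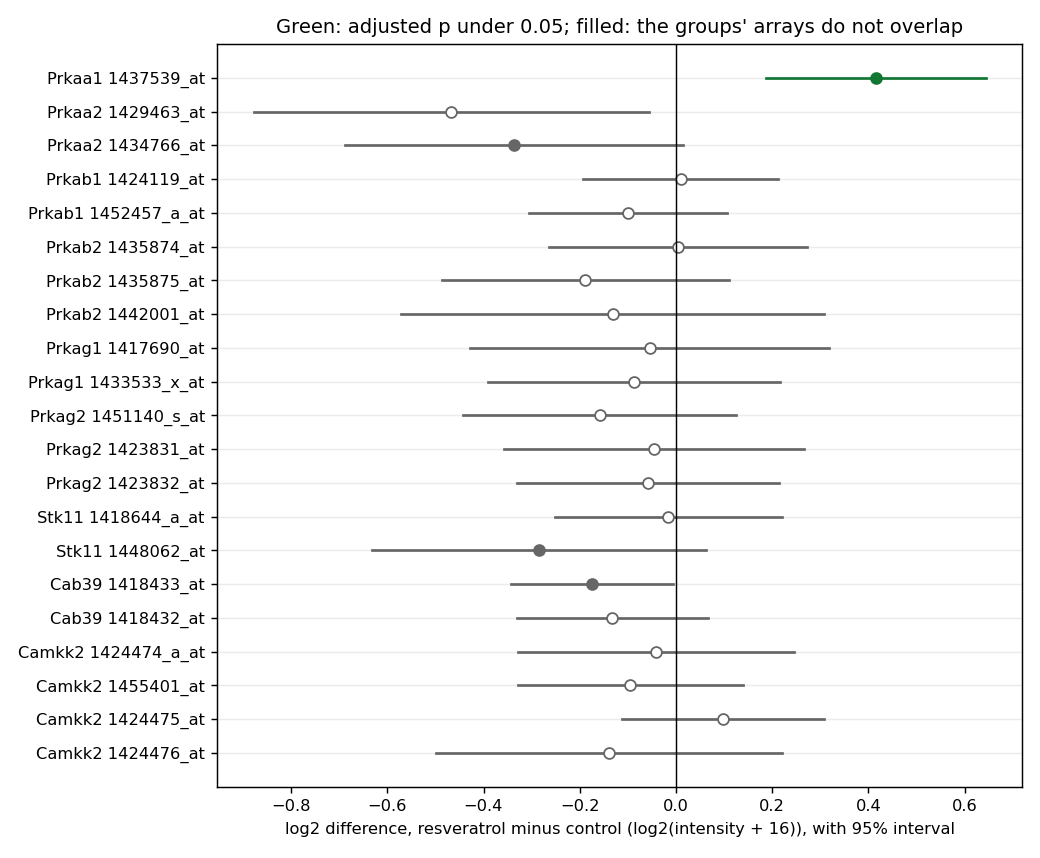
Log2 difference, resveratrol minus control, with its 95% interval for the 21 tested member probe sets; green marks adjusted p under 0.05 and filled points mark groups whose arrays do not overlap. Prkaa1 at 0.42 is the 1 probe set that passes, and Prkaa2 at -0.47 has the most negative value and does not pass.

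Counted together, 21 of the 23 member probe sets were bright enough to be tested, and 1 of 21 was called, as a rise. Over the 27022 probe sets tested, 8.17% were called, 3.95% as rises and 4.22% as falls. The 1 call is 4.76% of the member probe sets, close to these shares. In 4 of 21 the arrays of the groups did not overlap (Prkaa1, 1 of Prkaa2, 1 of Stk11 and 1 of Cab39), or 19.0%, against 26.4% of all probe sets tested. Negative differences were found in 17 of 21, with a median of -0.09, and 48.1% of all tested probe sets were negative, with a median of 0.01. The 21 come from 9 genes, and probe sets of the same gene are not independent. By the brightest probe set, Prkaa1, Prkab1 and Prkab2 were positive, at 0.42, 0.01 and 0.00, and the other members were negative. Several of these signs turned when 1 array was left out. Besides Prkaa1, the brightest Prkaa2 and Cab39 probe sets had an unadjusted p under 0.05, at 0.0292 and 0.0438. The probe sets of 3 genes (Prkab1, Prkab2 and Camkk2), of the 8 with more than 1 tested, differed in sign.

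The level of Prkaa1 over the 6 arrays was most like that of probe sets of Cad, Hif1an, Dpp8, Cd44 and Steap1, by Pearson's r of log2 levels. The correlations ran from 0.9925 for Steap1 to 0.9984 for Cad. They are the highest of 22823 compared, 174 of which were over 0.95, and 6 arrays in 2 groups that share their treatment difference give high values easily. Of these 5, Cd44, the hyaluronan receptor, was called, with means of 564 ± 60.4 and 734 ± 39.1 (SD, n = 3). Hif1an, the asparagine hydroxylase that acts on HIF alpha subunits, went from 32.4 to 50.7 without passing.

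Genes around the complex were counted by lists of known roles, each gene by its brightest probe set. Over all genes tested in this way 5.32% were called as rises and 5.21% as falls, and the median difference was 0.02. Of 11 tested partners and regulators of AMPK and LKB1, 1 rose, none fell and 10 did not pass, with a median of 0.04. The gene that rose was Ak1, the cytosolic adenylate kinase, which turns ADP into ATP and AMP, the nucleotide AMPK senses. Ak1 read 398, 375 and 381 in control and 657, 684 and 648 in treated arrays, with all treated arrays far above all controls. Its difference was 0.76 ± 0.07 (SE, adjusted p = 0.00012), and it was 0.70 to 0.78 over the alternatives. A dimmer Ak1 probe set, at 15.2 and 10.6, was not tested. Prkag3, the muscle-type gamma3 subunit, lay under the brightness filter and has no test, at 7.03 ± 1.76 and 17.3 ± 4.04 (SD, n = 3).

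None of the 12 AMPK-related kinases that LKB1 also activates was called by its brightest probe set, in either direction, with a median of 0.01. A dimmer Sik3 probe set, of a kind that may bind other transcripts, was called higher, at 0.43 (adjusted p = 0.0287), and the brightest had 0.09 (adjusted p = 0.593). Sik2, a salt-inducible kinase abundant in fat cells, came closest, at 1041, 1010 and 1082 in control and 905, 900 and 886 in treated arrays. The groups did not overlap, and the difference was -0.22 ± 0.07 (SE, adjusted p = 0.0831). The dimmer Sik2 probe sets had -0.18 (adjusted p = 0.19), again without overlap, and -0.02 (adjusted p = 0.954), with overlap. The mean of its probe sets was -0.14 (adjusted p = 0.21). None of the 7 tested kinases related to Camkk2 through calmodulin was called either, with a median of -0.03. Camk2g had 0.31 ± 0.10 (adjusted p = 0.084) in its brightest probe set, and averaging its probe sets gave 0.29 (adjusted p = 0.0222), which passed.

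Among the genes of proteins that AMPK phosphorylates, those of glucose handling moved both ways. Of 7 tested, 1 rose, 2 fell and 4 did not pass, with a median of -0.04. Pfkfb3, which makes the activator of phosphofructokinase, read 700, 727 and 764 in control and 1077, 970 and 1013 in treated arrays, a rise of 0.47 ± 0.07 (SE, adjusted p = 0.00308). Its dimmer probe set had 0.25 (adjusted p = 0.27). Gys1, the glycogen synthase outside liver, read 944, 847 and 781 in control and 452, 485 and 449 in treated arrays, a change of -0.87 ± 0.08 (adjusted p = 0.000141). The other Gys1 probe set gave -0.70 (adjusted p = 0.00113). Gfpt1, the entry enzyme of hexosamine synthesis, had -0.33 ± 0.07 (adjusted p = 0.0167), a call lost without resveratrol replicate 1 (adjusted p = 0.0793) or resveratrol replicate 2 (adjusted p = 0.0569). Its other tested probe sets had -0.31 (adjusted p = 0.0786) and -0.38 (adjusted p = 0.266) without passing. The mean of its tested probe sets was -0.34 (adjusted p = 0.0235), and its remaining probe sets were too dim to be tested.

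Of 6 tested genes of lipid and sterol substrates, 2 fell and 4 did not pass, with a median of -0.46. Those that fell were Mlxipl, the carbohydrate response factor, and Acaca, the acetyl-CoA carboxylase, at -0.64 in its brighter probe set and -0.42 (adjusted p = 0.0704) in the other. Mlxipl read 79.6, 67.5 and 87.4 in control and 21.1, 22.7 and 14.1 in treated arrays, near the lowest level tested. It was bright enough to be tested through its control arrays, and its difference depends on the offset, at -1.42 with 16, -1.98 with 1 and -0.77 with 64. Of 8 tested substrates that act in transcription, 2 fell and 6 did not pass, with a median of -0.15. Ppargc1a, a coactivator of mitochondrial genes, read 388, 334 and 378 in control and 228, 231 and 251 in treated arrays. All 5 of its probe sets had negative differences, from -0.60 to -0.39, and 3 of these passed. Creb1, the cAMP response factor, had -0.42 ± 0.11 (SE, adjusted p = 0.0392) in its brightest probe set and -0.45 (adjusted p = 0.0378) in the next, but its dimmer probe sets included 0.22 and 0.22, and the mean of its probe sets was -0.12 (adjusted p = 0.546). The Creb1 call was also lost with no filter (adjusted p = 0.0803), without the intensity trend (adjusted p = 0.104), and without control replicate 2 or 3 or resveratrol replicate 1 or 2, with adjusted p of 0.0908, 0.118, 0.137 and 0.141. None of the 9 substrates of growth, autophagy and mitochondrial control was called, with a median of 0.03. Cdkn1b, a cell cycle inhibitor, had -0.37 ± 0.12 (adjusted p = 0.0891) in that list, with groups that overlapped. Among the alternatives it passed only without control replicate 2, at -0.51 (adjusted p = 0.0157). Its dimmer probe set had -0.02 (adjusted p = 0.962), and the mean of its probe sets was -0.20 (adjusted p = 0.334).

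Genes whose transcripts are known to rise when AMPK is activated in skeletal muscle were lower or did not pass in these cells. Of 7 tested, 4 fell, none rose and 3 did not pass, with a median of -0.39. Hk2, hexokinase 2, read 1389, 1295 and 1332 in control and 883, 932 and 920 in treated arrays, a change of -0.55 ± 0.07 (SE, adjusted p = 0.000874). Slc2a4, the insulin-responsive glucose transporter, had -1.19 and -1.38 in its 2 probe sets, and Nampt, an enzyme of NAD synthesis, had -0.39 (adjusted p = 0.00884) in its brightest probe set, while its other probe sets had -0.30 and -0.21 without passing. Ppargc1a is the fourth of these and is also counted above. Over all lists, 66 genes were tested, of which 2 rose, 9 fell and 55 did not pass. Of all genes tested by their brightest probe set, 5.32% were called as rises and 5.21% as falls. The lists were chosen with earlier results of these data known, and no test was run on the lists as sets.

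**Figure D5:**
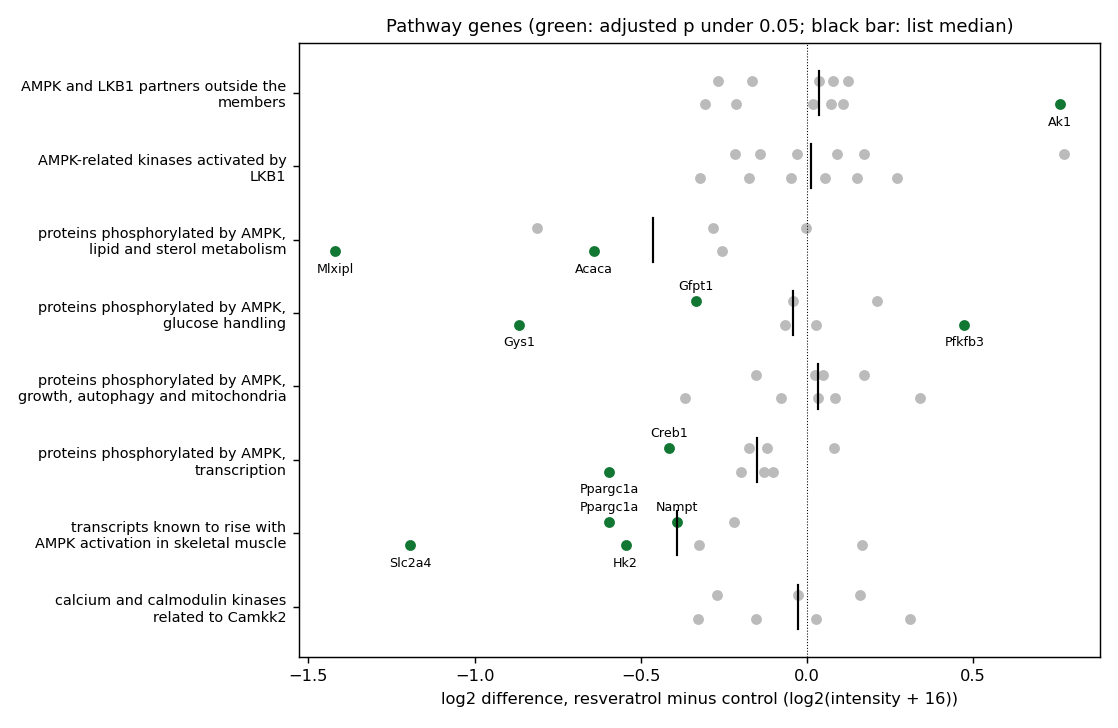
Log2 difference, resveratrol minus control, of the tested genes of each list (1 dot per gene, by its brightest probe set), with called genes in green and the list median as a black bar; the vertical offset of dots has no meaning. Ak1 at 0.76 and Pfkfb3 at 0.47 are the called rises, and 9 genes are called falls, Ppargc1a being drawn in both of its lists.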

How the data were processed

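The deposited table holds linear intensities, a value for every probe set on every array. Which software summarised them is not stated in these sources. Every array has the same trimmed mean, 150 (2% trimmed from both ends), so the values appear scaled by 1 factor per array, which leaves differences that depend on signal level. Control replicate 1 is given with more decimals than the other arrays, and whether it was summarised separately is not stated. Without that array the Prkaa1 difference was 0.32 in limma's fit (adjusted p = 0.0758). All 6 columns were used. Intensities became log2(intensity + 16), control probe sets were left out, and the brightest 60% by mean log2 level (27022 probe sets) were tested by limma 3.58.1 in R 4.3.3 (lmFit, eBayes with intensity trend), 2-sided, with Benjamini-Hochberg adjustment and a threshold of 0.05. Ranking by mean linear intensity was tried first and gave 2220 calls; the log2 ranking, with 2209, was kept after both counts were seen and because it matched an earlier analysis of these data. The same steps were tested on simulated arrays. The number of arrays limits the precision. No detection calls were used.

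All 23 member probe sets matched RefSeq by Entrez number, with 0 symbols changed. The array's genome build is not given, so coordinates are given only for RefSeq promoters. Named are all members, up to 4 called genes per list (or the one of smallest p), and the 5 probe sets most like Prkaa1. Some listed genes are not reported here. Members, lists, motifs and tests were chosen with earlier results of these data known. Alternatives are given in the closing section. Figures were drawn in matplotlib 3.10.9 under Python 3.11.15.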

Additional observations from a re-analysis of the deposited data

How the results depend on the processing

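The number of called probe sets, 2209, was 1396 with no filter on dim probe sets, 861 without an intensity trend in eBayes, and 1127 to 1956 with 1 array left out. That number rose to 2527 with quantile normalization, 2521 with the brightest 40% of probe sets and 2438 with array weights. The 1 called member probe set became 0 with no filter, without the trend and with the spike split as a block, and 0 to 1 with 1 array left out; it stayed at 1 under the other alternatives. With the replicate block, 1894 probe sets were called and Prkaa1 had adjusted p = 0.044. Deviations of same-numbered samples from their group means correlated at -0.0605, -0.0164 and 0.0931. With 3 arrays per group these values cannot tell whether same-numbered samples were handled together, and the labels do not say. Ranking the filter by mean linear intensity, an alternative added after seeing the data, gave 2220 probe sets and adjusted p = 0.0328 for Prkaa1. The 11 called pathway genes were 8 to 13 over the alternatives. Without the trend, Nampt (adjusted p = 0.0688), Gfpt1 (adjusted p = 0.0921) and Creb1 (adjusted p = 0.104) did not pass, nor did Creb1 with no filter (adjusted p = 0.0803). Signs turned only for member probe sets that passed in no setting. With the spike block the brighter Stk11 probe set was at 0.050, the brightest Prkab2 at -0.030 and the dimmest Prkab2 at 0.032. With array weights the brightest Prkab2 was at -0.0012. Averaging all probe sets of a gene put Prkab2 at -0.11, Prkab1 at -0.045 and Camkk2 at -0.044. With 1 array left out, the range was -0.25 to 0.12 and -0.17 to 0.051 for the Prkag1 probe sets, -0.089 to 0.067 for the brighter Stk11, -0.14 to 0.051 for the second Prkag2, -0.053 to 0.060 for the brighter Prkab1, -0.062 to 0.067 and -0.33 to 0.026 for the brightest and dimmest Prkab2, and -0.13 to 0.11 for the brightest Camkk2. The cause of these changes was not tested. The differences within each side of the spike split and those between paralogs were chosen after seeing the data.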
